A study of Mus musculus with 14 samples.

Results

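The cells described here were *Hoxb5*-high differentiated neurons of the pontine nuclei (PN) of the mouse embryo at E18.5, shortly before birth. They were selected on measured transcript counts. A cell was a member if it had at least 20 UMIs (unique molecular identifiers, each marking 1 captured mRNA molecule) of *Mapt*, at least 1 of *Barhl1*, at least 1 of *Pax6*, none of *En2*, none of *Nhlh1* and at least 2 of *Hoxb5*. Of 55054 cells at E18.5 that had at least 1000 genes and under 10% mitochondrial UMIs, 510 were members. The series held 122658 such cells in 14 libraries.

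Labelled cells of the *Atoh1* lineage were sorted from the hindbrain of 3 control and 3 *Atoh1*S193A/- embryos at E14.5 and again at E18.5, each embryo giving 1 library, and from the dissected PN of pooled control mice at postnatal day 5 (P5), in 2 libraries. The study asked how a hypomorphic *Atoh1* protein with a serine-to-alanine change affects the neurons that *Atoh1* specifies. Control embryos were *Atoh1*Cre/+; Rosa-lsl-TdTomato/+ and mutant embryos *Atoh1*Cre/S193A; Rosa-lsl-TdTomato/+, on C57BL/6J. The Cre sits in the *Atoh1* locus and replaces that allele, so control embryos also had only 1 working copy of *Atoh1*, and the label marks every descendant of an *Atoh1*-expressing cell, including those outside the PN. Each mutant embryo was collected with a control littermate of the same replicate number.

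Pontine neurons relay signals from the cerebral cortex to the cerebellum and are glutamatergic. They arise in the caudal rhombic lip of the hindbrain and migrate along its surface to the ventral pons. Hox genes are homeobox transcription factors that lie in clusters and are expressed in nested domains along the head-to-tail axis, with higher-numbered paralogs beginning further caudally, and postmitotic neurons can keep the Hox genes of the progenitors they came from. *Hoxb5* belongs to the most caudal set of Hox genes that pontine progenitors express.

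The 510 members came from all 6 libraries at E18.5. The control libraries 1, 2 and 3 held 63, 57 and 141 of them, and the *Atoh1*S193A/- libraries 83, 50 and 116. The rule set the *Hoxb5* values, so these are a description. There were 118 members with 2 *Hoxb5* UMIs, 227 with 3 to 5, 124 with 6 to 10 and 41 with more, and the median was 4. Just outside the threshold, 151 cells that passed the other limits had 1 *Hoxb5* UMI. The median of *Mapt*, which encodes the axonal microtubule protein tau, was 47 UMIs, with 30 members at 20 to 24 and 21 cells just outside at 15 to 19. A single limit kept out 48 cells with *En2*, a gene of cerebellar granule neurons, 54 with *Nhlh1*, a gene of newly born neurons, 42 without *Barhl1* and 115 without *Pax6*.

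Members were compared with 1412 cells of the same libraries that passed the same limits, had no *Hoxb5* UMI and had at least 2 UMIs of *Hoxb2* and *Hoxb3* together. They are called *Hoxb5*-zero neurons below. Members were somewhat deeper, with median UMIs per cell of 17549 to 25526 over the 6 libraries against 16631.5 to 21488 in *Hoxb5*-zero neurons. Their median *Mapt* was higher as well, at 43 to 51 UMIs against 34 to 45. The comparison between classes was therefore also run, at each stage, with cells of the larger class picked to match the smaller class on depth. At E18.5 and P5 the picked cells were *Hoxb5*-zero neurons. At E14.5 they were mostly *Hoxb5*-high cells, and depth stayed unequal in some libraries. In control library 1 of E14.5 the medians were 22356 UMIs in *Hoxb5*-high and 23478 in *Hoxb5*-zero cells. Of cerebellar-type cells with at least 2 *En2* UMIs, 0.323% to 0.597% per library reached 2 *Hoxb5* UMIs and 0.485% to 2.93% had 1 or more, at median depths of 11806 to 19115 UMIs.

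The label was compared with markers that the rule did not use. *Slc17a6*, the vesicular glutamate transporter of PN neurons, had a UMI in 464 of the 510 members (91.0%), and its level in members was 171 ± 34.3 CPM (SD, n = 6 libraries), where CPM is the UMIs of a gene per 1000000 UMIs summed over the cells of a class in a library. *Slc17a7*, the second such transporter, was near 0 at 3.85 ± 2.76 CPM. Of markers of other cells, the 7 of inhibitory neurons summed to 75.3 to 97.1 CPM in members and to 85.5 to 122 CPM in *Hoxb5*-zero neurons. Most of the sum in members came from *Gad2*, which encodes an enzyme of GABA synthesis, at 52.5 ± 16.3 CPM, and the homeobox gene *Lhx1* at 31.7 ± 8.20 CPM. *Gad1*, *Slc32a1*, *Slc6a5* and *Pax2* of the same list were each at a mean of 1.02 CPM or less. *Gad2* had a UMI in 35.1% to 64.7% of the members of a library, against 2.73% to 5.20% of the cells with *En2*. The 8 granule lineage markers summed to 271 to 469 CPM in members, 158 to 314 CPM in *Hoxb5*-zero neurons and 1693 to 2234 CPM in cells with *En2*, and the sum was higher in members than in *Hoxb5*-zero neurons in 5 of 6 libraries. Of that list *Reln*, which encodes a secreted glycoprotein of migration, was at 176 ± 39.0 CPM in members, and *Gabra6* had no UMI. The 4 unipolar brush cell markers summed to 37.6 to 90.1 CPM in members against 606 to 699 CPM in cells with *En2*. The 6 markers of other *Atoh1*-lineage neurons summed to 6.37 to 112 CPM in members and 36.0 to 81.1 CPM in cells with *En2*. *Isl1* of motor neurons and *Fev* of serotonergic neurons were at 0.484 and 0 CPM. The 5 microglial markers summed to at most 2.16 CPM in any library and the 7 vascular and blood markers to at most 11.2 CPM. The reporter transcript WPRE was found in 49 of 50 to all members of a library. Most members thus had the glutamate transporter and the lineage reporter, and a small part also carried markers of other *Atoh1*-lineage neurons, as described below. The cells had been sorted for the reporter, so its presence was fixed beforehand. *Slc17a6* was at 515 CPM in members with at least 3 UMIs of those markers and at 156 CPM in members with none. Neither transcript was thus a check that the members were PN neurons. *Barhl1* and *Pax6* were required of every member, so their presence is no check of the label. The cells were not located in tissue here.

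The 3 other markers that came with the definition of these cells, *Hoxa5*, *Hoxc4* and *Calb1*, were all far above *Hoxb5*-zero neurons at E18.5. Because they came with the definition, their E18.5 values are a description. *Hoxa5*, a paralog of *Hoxb5* on another cluster (chr6:52201754-52204587, GRCm38, minus strand), stood at 773, 569 and 540 CPM in members of control libraries 1, 2 and 3 and at 1002, 664 and 852 CPM in those of the *Atoh1*S193A/- libraries. *Hoxb5*-zero neurons of the 6 libraries had a lowest value of 2.06 CPM, a median of 5.27 and a highest of 24.8. No library overlapped between the classes, and the fitted log2 difference was 6.38. *Hoxc4* (chr15:103018934-103036852, plus strand) was the most uniform marker, at 336, 325 and 323 CPM in control and 332, 280 and 286 CPM in *Atoh1*S193A/- members, against a lowest, median and highest of 9.35, 21.3 and 32.4 CPM in *Hoxb5*-zero neurons. *Calb1*, which encodes the calcium buffer calbindin (chr4:15881264-15908064, plus strand), stood at 64.0, 85.5 and 91.5 CPM in control and 125, 108 and 95.8 CPM in *Atoh1*S193A/- members, against 11.0 to 26.5 CPM in *Hoxb5*-zero neurons.

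**Figure D1:**
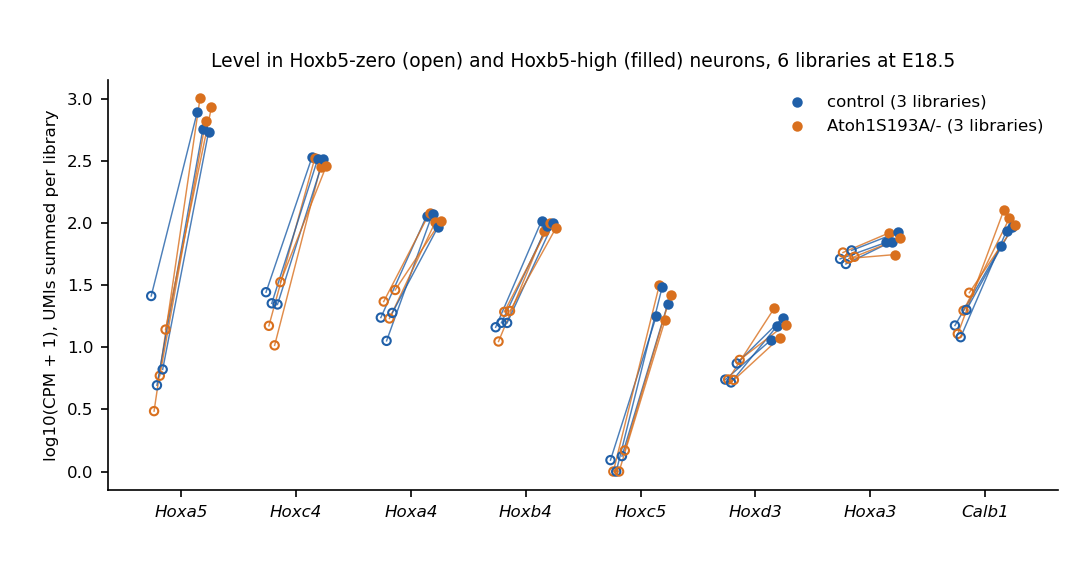
Level of Hox genes and *Calb1* in each of the 6 libraries at E18.5, as log10(CPM + 1) of UMIs summed per library (y axis), in *Hoxb5*-zero (open) and *Hoxb5*-high neurons (filled), control in blue and *Atoh1*S193A/- in orange. *Hoxa5* lay at 540 to 1002 CPM in members and at 2.06 to 24.8 CPM in *Hoxb5*-zero neurons, and the 2 classes lay much closer together for *Hoxa3*.

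Per cell the markers were not equally frequent. *Hoxc4* had a UMI in 469 members (92.0%), *Hoxb4* in 421, *Hoxa4* in 393, *Hoxa5* in 347 (68.0%), *Calb1* in 290 (56.9%) and *Hoxc5* in 160. All of *Hoxa5*, *Hoxc4*, *Hoxb4* and *Hoxa4* were found in 253 members, and 33 (6.47%) had neither *Hoxa5* nor *Hoxc4*. When each cell was thinned to 10000 UMIs, which left out 3 members, *Hoxa5* was found in 61.0% ± 4.18 of members (SD, n = 6 libraries), in 3.48% ± 1.96 of *Hoxb5*-zero neurons and in 1.92% ± 1.28 of *En2* cells, which should lack it. *Calb1* was found in 40.8% ± 9.65, 10.8% ± 3.35 and 1.11% ± 0.392 in the same order. Without thinning these shares were 68.7%, 5.35% and 2.98% for *Hoxa5* and 57.9%, 15.4% and 1.83% for *Calb1*. At equal depth both genes were thus found more often in members than in either other class in every library.

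Beyond *Hoxa5* and *Hoxc4*, members differed in the other Hox genes by paralog number. Of the 39 Hox genes of the list, 8 could be tested in the members against *Hoxb5*-zero neurons at E18.5 (edgeR quasi-likelihood test with library as a block, Benjamini-Hochberg adjustment). Of these, 7 rose and none fell, and their median log2 difference was 2.60, where 9.91% of the 10374 genes tested rose, 6.07% fell and the median of all was -0.01. *Hoxb2* and *Hoxb3*, which had defined the comparison cells, were not tested. The tested genes included *Hoxa5* and *Hoxc4*, which came with the definition. *Hoxa5* and *Hoxc5* met the limit of 10% of cells through the members only. In *Hoxb5*-zero neurons they had a UMI in a mean of 5.35% and 0.357% of cells over the libraries. The count of risen Hox genes at E18.5 is therefore a description. Paralog group 5 was completed by *Hoxc5*, with 275 UMIs in members and 6 in *Hoxb5*-zero neurons (23.2 ± 6.32 against 0.174 ± 0.205 CPM, SD, n = 6). In group 4, *Hoxb4* was at 94.9 ± 6.35 against 15.0 ± 3.16 CPM (log2 2.69, SE 0.09) and *Hoxa4* at 108 ± 10.6 against 18.4 ± 6.03 CPM (log2 2.50, SE 0.12). In group 3 the differences were smaller. *Hoxd3* was at 14.2 ± 3.37 against 5.16 ± 1.17 CPM (log2 1.45, SE 0.18) and *Hoxa3* at 72.0 ± 10.4 against 52.5 ± 4.79 CPM (log2 0.47, SE 0.07). In group 2, *Hoxa2* did not pass the test, at 41.9 ± 4.69 against 41.2 ± 4.43 CPM.

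Hox genes above group 5 were close to absent from the members. *Hoxa6*, *Hoxb6* and *Hoxc6* had 16, 15 and 21 UMIs over all 510 members, and of the 16 genes of groups 9 to 13 only *Hoxb9* had any, 6 UMIs in 1 library. *Hoxb8* had 44 UMIs, most of them in 1 library, where it reached 20.4 CPM. Without 17 members described below, which carried markers of other *Atoh1*-lineage neurons, *Hoxb8* was at most 2.65 CPM in any library and *Hoxb9* at 0. As a description, *Hoxb2* and *Hoxb3* were present in members too, at 44.9 ± 5.07 and 150 ± 10.1 CPM against 55.5 ± 6.46 and 195 ± 9.07 CPM in the *Hoxb5*-zero neurons, which had been required to have them. The members thus had Hox transcripts of groups 2 to 5. In the annotation *Hoxa3* overlaps *Hoxa4*, *Hoxa5* and *Hoxa6*, *Hoxc5* overlaps *Hoxc6*, *Hoxc8*, *Hoxc9* and *Hoxc10*, *Hoxd3* overlaps a *Hoxd4* gene model, and *Hoxb5* overlaps the antisense gene *Hoxb5os*. *Hoxb5os* lies on the opposite strand to *Hoxb5* and, in members without those 17, was at most 0.910 CPM in any library. The other genes named overlap on the same strand, and their counts may have been affected by the overlap.

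The libraries at E14.5 and P5 were not used by the rule, and the same limits were applied there. They gave 698 *Hoxb5*-high and 545 *Hoxb5*-zero cells at E14.5 and 1299 and 4407 at P5. At E14.5, 200 of the *Hoxb5*-high cells (28.7%) and 145 of the *Hoxb5*-zero cells (26.6%) had at least 3 UMIs of the 6 markers of other *Atoh1*-lineage neurons (*Lhx2*, *Lhx9*, *Foxb1*, *Foxp2*, *Pou4f1* and *Evx1*), against 17 of the 510 members (3.33%) at E18.5 and 4 *Hoxb5*-high cells at P5. In single E14.5 libraries the percentage was 20% to 58.0% of *Hoxb5*-high cells, so the E14.5 cells were a more mixed set under the same limits. At P5 all 8 tested Hox genes rose (9.58% of all 11500 genes rose and 8.23% fell). *Hoxa5* was at 82.7 and 78.0 CPM in *Hoxb5*-high cells of the 2 libraries against 1.31 and 0.929 CPM in *Hoxb5*-zero cells (log2 6.16), and *Hoxc4* at 186 and 192.6 against 20.6 and 24.1 CPM (log2 3.12). *Calb1* was at 169 and 152 against 94.8 and 95.6 CPM (log2 0.79), so that in this older tissue the *Hoxb5*-zero cells also had it. With 2 libraries the P5 fit has 1 residual degree of freedom before moderation, so its calls rest mainly on the spread borrowed across genes.

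At E14.5 the difference was smaller for every one of the group 4 and 5 genes named. Of 11 Hox genes tested, 8 rose and none fell, where 3.35% of the 10414 genes tested rose and 2.59% fell. *Hoxa5* was at 1104 ± 107 CPM against 55.6 ± 14.8 (SD, n = 6, log2 4.23, SE 0.09), *Hoxc4* at 469 ± 86.0 against 146 ± 45.8 (log2 1.69), *Hoxc5* at 119 ± 30.3 against 20.6 ± 10.7 (log2 2.50) and *Hoxa4* at 201 ± 38.3 against 144 ± 49.0 CPM (log2 0.46). At this stage *Hoxb5*-zero cells thus held these genes at higher levels than at E18.5. *Calb1* was near 0 in both classes, with at most 12.4 CPM in any library, and was not tested. Of the 6 markers of other *Atoh1*-lineage neurons, 5 were tested at E14.5, and 2 rose, *Foxb1* (log2 1.62) and *Pou4f1* (log2 2.36). Without the cells that carried such markers, *Hoxa5* was at log2 4.22, *Hoxc5* at 2.40, *Hoxc4* at 1.58 and *Hoxa4* at 0.32, each still called. Whether the differences changed between stages was not tested, and the stages also differ in the tissue dissected between embryo and P5.

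Members were not uniform in *Hoxb5*, and several genes followed its count across cells. These values are a description, since the cells were binned by a gene of the rule. *Hoxa5* averaged 9.04, 82.1, 199, 454 and 1347 CPM in cells with 0, 1, 2, 3 to 5 and 6 or more *Hoxb5* UMIs. *Hoxc4* averaged 20.8, 154, 214, 298 and 380 CPM in the same order. The cells with 1 *Hoxb5* UMI, left out of both classes, thus lay between them. *Syt4*, a synaptotagmin of secretory vesicles, went from 333 to 1161 CPM, *St18*, a zinc finger transcription factor, from 14.3 to 115 CPM and *Calb2*, which encodes calretinin, from 23.6 to 121 CPM. *Lmo4*, a LIM-only transcriptional regulator, went down along the same bins from 2264 to 670 CPM and the semaphorin receptor gene *Nrp1* from 250 to 59.4 CPM. *Calb1* had another pattern, with 16.8, 90.0, 121, 109 and 65.4 CPM. It was highest in members with few *Hoxb5* UMIs and lower in those with 6 or more.

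**Figure D2:**
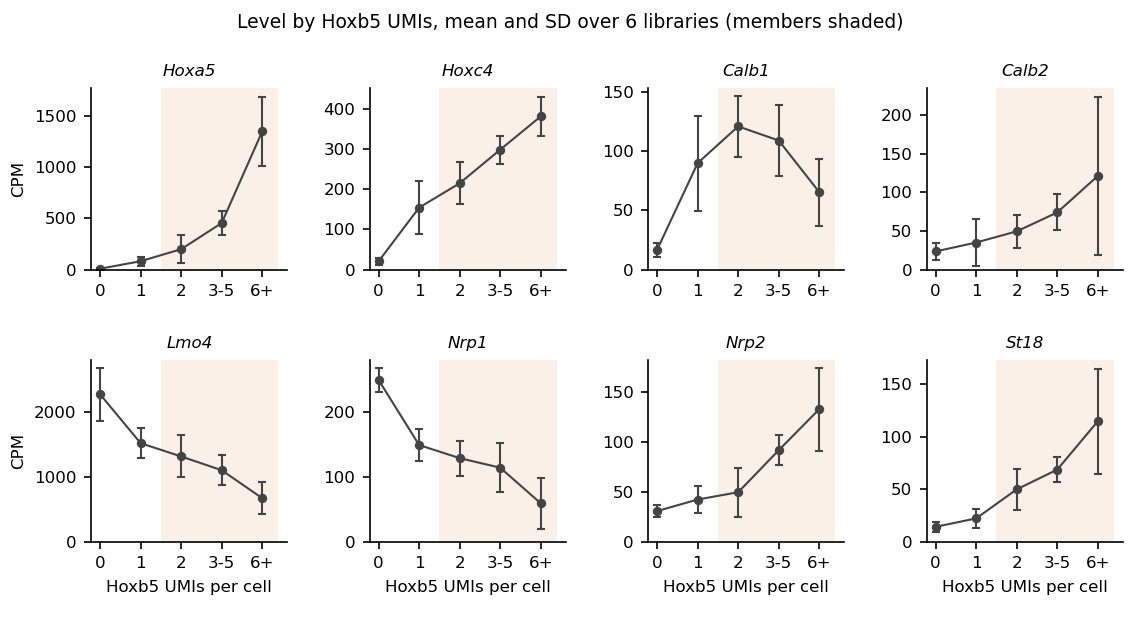
Level (CPM, y axis of each panel) of genes in cells grouped by their *Hoxb5* UMIs (x axis), as mean and SD over the 6 libraries at E18.5, with the bins of members shaded. *Hoxa5* rose from 9.04 to 1347 CPM and *Lmo4* went down from 2264 to 670 CPM, whereas *Calb1* peaked at 121 CPM in cells with 2 *Hoxb5* UMIs.

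Across all genes, 1658 of 10374 passed the test between members and *Hoxb5*-zero neurons at E18.5, of which 1028 were higher in members and 630 lower. Called means an FDR under 0.05 with an absolute log2 difference over 0.25. With depth-matched comparison cells 1177 were called, and 1097 of these were called in the same direction in both (66.2% and 93.2% of the 2 sets). With DESeq2 the count was 1035. Without the requirement of *Hoxb2* or *Hoxb3* in the comparison cells it was 2771, and in the control libraries alone 937.

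Beside the Hox genes, several of the 12 largest rises among genes higher in all 6 libraries were in genes of low level. The genes were picked by the size of their difference in these data. The filter also let a gene in through the class where it was high alone. The sizes at E18.5 are therefore a description. *Sfrp4*, a secreted modulator of Wnt signaling, was at 16.7 ± 5.05 CPM against 2.70 ± 1.12 (log2 2.58, SE 0.22). *Prex2*, an exchange factor for Rac, was at 21.0 ± 5.44 against 3.097 ± 0.773 CPM (log2 2.67, SE 0.18). *Gramd3*, *Siah3* and *Ankrd34b* rose by log2 2.98, 2.64 and 2.59. At P5, *Prex2*, *Siah3* and *Ankrd34b* rose again by log2 1.84, 1.27 and 0.80 and *Sfrp4* by 0.47, and *Gramd3* did not pass the test. *Alcam*, a cell adhesion molecule of growing axons, combined a large difference with a higher level, at 76.9 ± 8.43 against 15.5 ± 2.89 CPM (log2 2.29, SE 0.10). It rose at P5 (log2 1.75) and at E14.5 (log2 0.69) as well.

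The largest falls, picked in the same way and with the same limit, included a signal transducer and a chemokine receptor. *Smad3*, which relays TGF-beta signals, was at 1.33 ± 1.61 CPM in members against 6.08 ± 1.38 (log2 -2.49, SE 0.36), and *Ackr3*, a chemokine receptor of migrating neurons, at 3.21 ± 0.819 against 18.8 ± 2.96 CPM (log2 -2.46, SE 0.19). *Rprml* fell most, by 3.38 on the log2 scale, from 28.7 ± 6.09 to 2.55 ± 1.71 CPM. *Ptx3*, a secreted pentraxin, was next at 0.956 ± 0.520 against 8.45 ± 3.18 CPM (log2 -3.14, SE 0.32) and also fell at P5 (log2 -2.56), but it rose in *Hoxb5*-high cells at E14.5 (log2 2.31). A further 7 of the 12 largest falls, *2900055J20Rik*, *Palmd*, *Smoc2*, *Antxr1*, *Fbxl7*, *Plpp3* and *Adamts2*, lay between log2 -2.19 and -2.78, and all 7 fell at P5.

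Transcription factors of pontine neurons moved in both directions. Of 33 tested, 6 rose, 13 fell and 14 did not pass the test (median log2 -0.19), where 9.91% of all tested genes rose and 6.07% fell. *Lmo4* was at 981 ± 242 CPM in members against 2264 ± 409 (log2 -1.21, SE 0.04), and *Ebf1*, a helix-loop-helix factor of differentiating neurons, at 195 ± 34.0 against 373 ± 59.1 (log2 -0.93, SE 0.05). The orphan nuclear receptors *Nr2f1* and *Nr2f2* fell by 0.72 and 1.29 on the log2 scale. On the other side, the zinc finger genes *Zic4* and *Tshz1* rose, *Zic4* to 717 ± 81.8 from 393 ± 40.8 CPM (log2 0.87, SE 0.05) and *Tshz1* to 332 ± 28.6 from 199 ± 8.58 CPM (log2 0.75, SE 0.04). Of 9 cofactors that bind DNA with Hox proteins, 3 rose, among them *Pbx3* (log2 0.88) and *Pknox1* (log2 0.57), and none fell. *Pbx3* also rose at P5 (log2 1.01) and fell at E14.5 (log2 -0.99).

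The lists of marker genes that the study gave for its PN subtypes were chosen on these same libraries, so their direction is not independent evidence. All 9 markers of its subtype ePN3, of which *Hoxa5* and *Hoxc4* are members and *Hoxb5* was left out, rose (median log2 1.42), and 8 rose at P5. The list holds *Robo2*, *Cadm2*, *Tenm1*, *Rnf152*, *Atp1b1*, *Syt4* and *Meg3*. All 9 markers of its P5 subtype PN4 rose at E18.5 and again at P5. Of 10 ePN2 markers, 9 fell and none rose (median log2 -1.04). They include *Lmo4*, *Ephb1* (48.4 ± 8.74 against 146 ± 22.6 CPM) and *Sst*, which encodes somatostatin (127 ± 113 against 313 ± 72.2 CPM, log2 -1.50, SE 0.29). The spread of *Sst* in members was almost as large as its mean, and without 17 members described below, which carried markers of other *Atoh1*-lineage neurons, its difference was log2 -3.47 (SE 0.15). Of 10 ePN4 markers 7 rose and 1 fell, and of 10 ePN1 markers 1 rose, 4 fell and 5 did not pass the test.

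**Figure D3:**
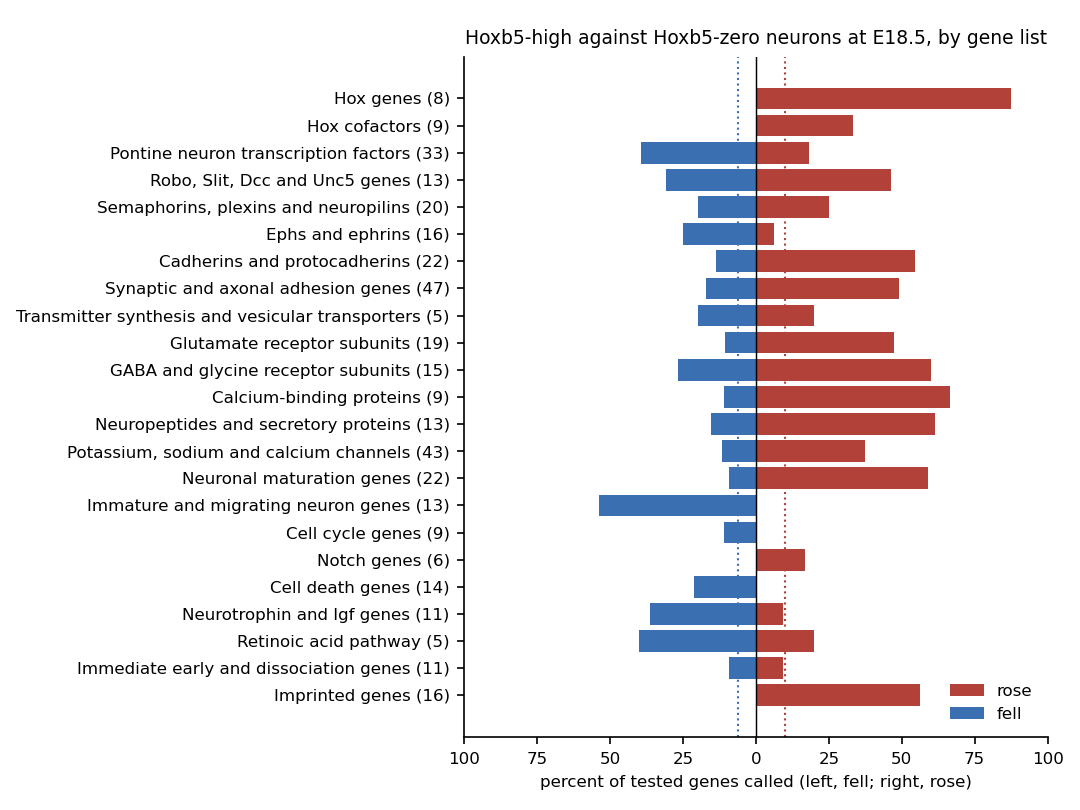
Percent of the tested genes of each list (rows, number tested in parentheses) that were called between *Hoxb5*-high and *Hoxb5*-zero neurons at E18.5, with fallen genes to the left and risen genes to the right of 0; dotted lines mark the percent of all tested genes, 9.91% risen and 6.07% fallen. Hox genes lay far to the right, with 7 of 8 tested genes risen and none fallen, as a description, since *Hoxa5* and *Hoxc4* came with the definition. The lists of subtype markers of the study are not drawn.

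Receptors that steer axons and migrating neurons differed between the classes gene by gene. Of 13 Robo, Slit, Dcc and Unc5 genes, 6 rose and 4 fell (median log2 0.08), where 9.91% of all tested genes rose and 6.07% fell. *Robo2*, a receptor for Slit repellents, was at 256 ± 21.0 CPM in members against 94.9 ± 8.65 (log2 1.42, SE 0.05) and rose at P5 too (log2 1.17). *Robo1* was at 20.9 ± 7.40 against 6.44 ± 3.46 CPM (log2 1.64, SE 0.20), but was not called at P5 (log2 -0.05). *Dcc*, the attractive netrin receptor, was lower in members, at 5.72 ± 1.32 against 11.1 ± 2.98 CPM (log2 -0.89, SE 0.19), and fell at P5 too (log2 -1.49). None of the 3 was called at E14.5.

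The neuropilins went opposite ways. *Nrp1*, a coreceptor for class 3 semaphorins, was at 97.3 ± 20.1 CPM against 250 ± 18.02 (log2 -1.32, SE 0.07), and *Nrp2* at 96.5 ± 21.2 against 30.8 ± 5.93 (log2 1.63, SE 0.08). At P5 the directions held, with log2 -1.20 and 0.37. Of 20 semaphorin, plexin and neuropilin genes, 5 rose and 4 fell, the latter with *Plxnc1* (log2 -1.08). Of 16 Eph and ephrin genes, 1 rose and 4 fell (median log2 -0.15), with *Ephb1* the furthest (log2 -1.60, SE 0.07), followed by *Epha7* (log2 -0.89) and *Epha3* (log2 -0.86). Among all tested genes 9.91% rose and 6.07% fell, so the Eph and ephrin rise was not above that share.

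Adhesion genes leaned towards the members. Of 22 cadherins and protocadherins, 12 rose and 3 fell (median log2 0.50), and of 47 synaptic and axonal adhesion genes 23 rose and 8 fell (median log2 0.29), shares above those of all genes. *Cdh6* was at 36.1 ± 13.5 against 10.4 ± 2.34 CPM (log2 1.77, SE 0.17) and *Pcdh19* at 91.5 ± 16.4 against 43.1 ± 9.38 CPM (log2 1.08, SE 0.10), whereas *Cdh8* was lower, at 41.7 ± 4.86 against 89.5 ± 7.81 CPM (log2 -1.12, SE 0.08). *Cadm2* and *Cadm1*, 2 members of 1 family of synaptic adhesion molecules, differed in opposite directions, *Cadm2* at 401 ± 39.8 against 130 ± 25.9 CPM (log2 1.61) and *Cadm1* at 165 ± 20.8 against 378 ± 12.4 CPM (log2 -1.21). The lean of the cadherins was not found at P5, where 4 of 23 rose and 9 fell, and *Cdh6* fell there (log2 -0.39).

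Genes of transmission and excitability were more often higher than lower in members, where 9.91% of all tested genes rose and 6.07% fell. Of 5 tested genes of transmitter synthesis and vesicular loading, *Slc17a6* rose (log2 0.50, SE 0.06) and *Slc18a3*, the vesicular acetylcholine transporter, fell, from 14.7 ± 5.04 to 3.88 ± 3.28 CPM (log2 -1.77, SE 0.26). Of 19 glutamate receptor subunits 9 rose and 2 fell, with *Grm5* at 221 ± 21.3 against 111 ± 20.2 CPM (log2 0.99, SE 0.07) and *Grin3a* at 53.3 ± 4.19 against 28.9 ± 6.21 CPM (log2 0.83, SE 0.09). Of 15 GABA and glycine receptor subunits 9 rose and 4 fell, the latter with *Gabrg1* (log2 -0.98, SE 0.08) and *Glra2* (log2 -1.03, SE 0.08). Of 43 potassium, sodium and calcium channel genes 16 rose and 5 fell. *Kcnd2*, which carries the A-type potassium current, was at 188 ± 13.0 against 97.7 ± 15.4 CPM (log2 0.93, SE 0.05), and *Kcnma1*, a calcium-activated potassium channel, at 52.2 ± 5.35 against 24.3 ± 2.18 CPM (log2 1.10, SE 0.08).

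Calcium-binding proteins and peptides rose in most cases. Of 9 calcium-binding proteins, among them *Calb1*, 6 rose and 1 fell (median log2 1.06). *Vsnl1*, a neuronal calcium sensor, was at 95.4 ± 31.7 against 29.9 ± 10.8 CPM (log2 1.65, SE 0.10) and *Ncald* at 97.3 ± 12.9 against 46.1 ± 5.24 CPM (log2 1.06, SE 0.07). Of 13 neuropeptide and secretory protein genes 8 rose and 2 fell. *Gal*, which encodes galanin, was at 18.6 ± 8.71 against 5.54 ± 1.88 CPM (log2 1.55, SE 0.23), and *Bdnf*, a neurotrophin, at 32.8 ± 9.09 against 20.5 ± 5.23 CPM (log2 0.64, SE 0.13). Of 11 tested neurotrophin and Igf genes, only *Bdnf* rose and 4 fell. Among all tested genes 9.91% rose and 6.07% fell, so the rise in this list was near that share. Those that fell included *Ntrk3*, the receptor of neurotrophin-3, at 46.8 ± 13.5 against 76.4 ± 6.19 CPM (log2 -0.76, SE 0.09) and its ligand *Ntf3* at 2.92 ± 1.42 against 7.63 ± 1.91 CPM (log2 -1.59, SE 0.26).

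Maturation genes were higher and genes of immature neurons lower in members, which also had more *Mapt* and more UMIs per cell than *Hoxb5*-zero neurons. Of 22 maturation genes 13 rose and 2 fell (median log2 0.31), and of 13 genes of immature and migrating neurons none rose and 7 fell (median log2 -0.35). *Syt4* was at 812 ± 117 against 333 ± 72.3 CPM (log2 1.29, SE 0.09) and *Atp1b1*, a subunit of the sodium pump, at 299 ± 45.2 against 118 ± 18.8 CPM (log2 1.34, SE 0.06). *Igfbpl1* was at 320 ± 39.4 against 567 ± 84.9 CPM (log2 -0.81, SE 0.05) and the axonal adhesion gene *Cntn2* at 56.1 ± 10.5 against 119 ± 14.2 CPM (log2 -1.07, SE 0.07). The part of maturity or depth in the other differences was not tested beyond the depth-matched comparison.

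Of 16 imprinted genes 9 rose and none fell (median log2 0.34), with *Zdbf2* at 119 ± 10.5 against 69.5 ± 9.77 CPM (log2 0.77) and *Nap1l5* at 258 ± 21.5 against 180 ± 14.9 CPM (log2 0.52). Of 5 retinoic acid pathway genes 1 rose and 2 fell, the receptor *Rarb* at 6.70 ± 1.53 against 15.7 ± 2.49 CPM (log2 -1.28, SE 0.17) and *Crabp1* at 70.7 ± 7.08 against 148 ± 21.2 CPM (log2 -1.02, SE 0.08). Of 6 Notch genes only the ligand *Dll1* rose (log2 0.80, SE 0.15). Of 14 cell death genes none rose and 3 fell, and of 9 cell cycle genes none rose and 1 fell. Of 11 immediate early and dissociation genes 1 rose and 1 fell. Among all tested genes 9.91% rose and 6.07% fell, so the immediate early and dissociation genes were near those shares.

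Transcripts of other cell types were low, and some moved with the class. Of the 8 granule lineage markers 3 were tested and 1 rose, *Reln*, at 176 ± 39.0 against 87.2 ± 23.1 CPM (log2 0.97, SE 0.10), which turned to -0.84 when comparison cells were not required to have *Hoxb2* or *Hoxb3*. The summed level of that list was 271 to 469 CPM in members, 158 to 314 CPM in *Hoxb5*-zero neurons and 1693 to 2234 CPM in *En2* cells. Of the 7 glial markers 5 were tested, and *Slc1a3* (log2 -1.22) and *Vim* (log2 -0.56) fell. The glial sum was 100 to 230 CPM in members and 187 to 297 CPM in *Hoxb5*-zero neurons. The 6 markers of other *Atoh1*-lineage neurons summed to 4.45 to 21.5 CPM in *Hoxb5*-zero neurons, and the sum was higher in members in 6 of 6 libraries. None of these 6 passed the filter on low counts. The part of the granule and glial transcripts in the differences above was not tested. Without the cells of other-lineage markers 1621 genes were called, and 1527 of the 1658 calls (92.1%) held in the same direction.

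Most differences seen at E18.5 had the same sign at P5, in fits without depth matching. As at E18.5, *Hoxb5*-high cells of P5 were deeper, with medians of 38625.5 and 45083 UMIs against 30137.5 and 34256. At E14.5 they were shallower in most libraries, for example 20771 against 23254.5 UMIs in control library 3. Control library 2 of E14.5 went the other way, with 26019 against 25672. The part of depth in the overlap between stages was not tested. Of the 1028 genes that rose, 1019 were tested at P5, 850 had the same sign (83.4%) and 380 were called in the same direction, which is 37.0% of the E18.5 rises and 34.5% of the P5 rises. Of the 630 that fell, 610 were tested, 503 had the same sign and 236 were called. In the opposite direction 40 and 10 were called. At E14.5 the overlap was smaller, with 547 of 892 risen genes of the same sign and 139 called, and 328 of 585 fallen genes of the same sign and 80 called. Without the E14.5 cells of other-lineage markers, 452 of 852 risen genes (53.1%) and 297 of 579 fallen genes (51.3%) had the same sign, with 128 and 87 called and 83 and 37 called in the opposite direction. In all, 76 genes rose and 45 fell at the 3 stages alike. Among the former were *St18*, *Prdm8*, *Tenm1*, *Nrp2*, *Kcnd2* and *Zic4* beside the Hox genes (*Prdm8* was at log2 -0.16 at E18.5 against comparison cells without the Hox requirement, and *Nrp2* was not called at E14.5 without the cells of other-lineage markers), and among the latter *Lmo4*, *Sst*, *Cadm1*, *Nr2f2* and *Gabrg1*. Across genes the log2 differences at E18.5 correlated with those at P5 with r = 0.580 (10226 genes) and with those at E14.5 with r = 0.288 (9931 genes), as a description, since genes are not independent and the limits on *Hoxb5* and *Mapt* were shared.

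**Figure D4:**
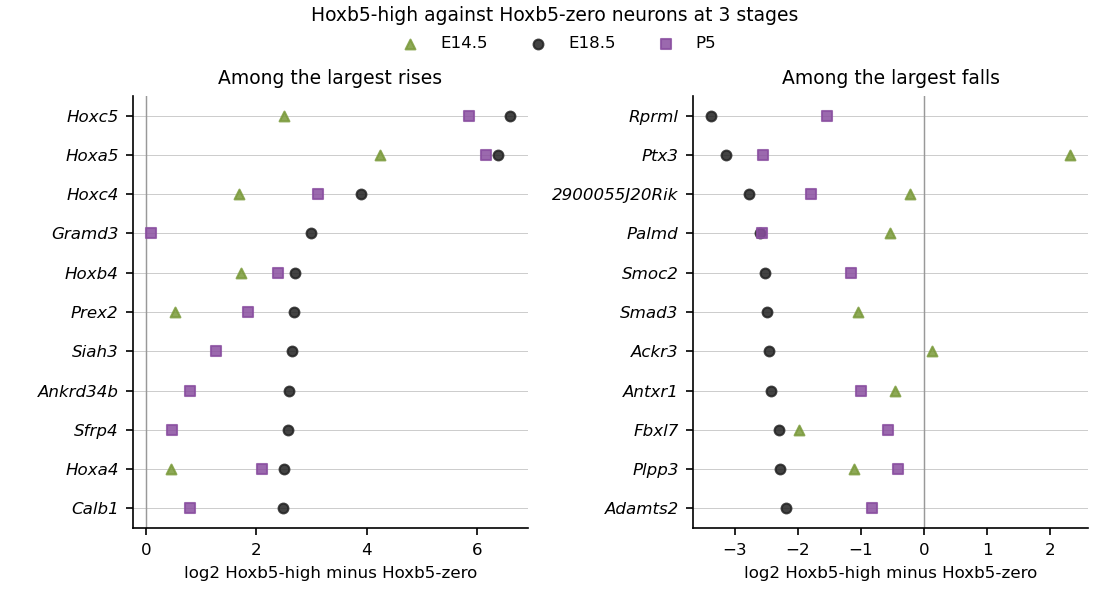
Log2 difference between *Hoxb5*-high and *Hoxb5*-zero neurons (x axis) at E14.5 (triangles), E18.5 (circles) and P5 (squares) for genes among the largest rises (left) and falls (right) at E18.5 (rows), in 6, 6 and 2 libraries. *Hoxa5* stayed above log2 4 at each stage, and *Ptx3* was at log2 2.31 at E14.5 and below 0 at the other 2 stages.

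The second question was whether members differed between control and *Atoh1*S193A/- embryos. The share of members among the sorted cells did not differ detectably, and it does not give the number of neurons in the tissue. At E18.5 the study reported a lower percentage of its subtype ePN1 in the mutant. It found no significant change in its other ePN subtypes, among them ePN3, of which *Hoxb5* was a marker. At P5 the study reported fewer *Hoxb5*-positive labelled neurons in caudal sections of the mutant PN, by in situ hybridization. No mutant cells of P5 were sequenced. Members made up 0.782%, 0.603% and 1.54% of kept cells in control libraries 1, 2 and 3, and 0.731%, 0.594% and 1.34% in the *Atoh1*S193A/- libraries. Each mutant value was slightly below its littermate, and the third pair was above the other 2 in both genotypes. The means were 0.976 ± 0.4997% and 0.890 ± 0.399% (SD, n = 3; exact two-sided permutation test p = 0.6, smallest possible 0.1; exact sign-flip test over pairs p = 0.25, the smallest possible).

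As a share of pontine-gated cells, all cells with *Barhl1*, *Pax6*, no *En2* and Hox transcripts, members were higher in the mutant on average, in 2 of 3 pairs. They were 9.04%, 7.44% and 12.9% in the 3 control libraries, and 8.71%, 14.2% and 20.8% in the mutant ones (limma on logits, difference 0.42, SE 0.33, adjusted p = 0.385, and 0.253 with the littermate block; exact permutation p = 0.3). Of kept cells, the pontine-gated cells themselves took 9.57 ± 2.09% in control embryos against 6.35 ± 2.10% in mutants (SD, n = 3; p = 0.2 by the exact permutation test). They were lower in the mutant in 3 of 3 littermate pairs, with differences of -0.25, -3.91 and -5.49 percentage points (p = 0.25 by an exact test that flips signs within pairs, which cannot go lower here). Cells of at least 10000 UMIs, 5029 to 9518 per library, were also thinned to that depth, with limits of 1 *Hoxb5* UMI and 10 *Mapt* UMIs. The share of members in kept cells was then 1.09 ± 0.486% in control and 1.25 ± 0.867% in the mutant, lower in the mutant in 1 of 3 pairs (exact permutation p = 0.9, n = 3). Thinned, the share of members in pontine-gated cells was 13.2 ± 2.76% against 20.7 ± 9.34%, higher in the mutant in 3 of 3 pairs (exact permutation p = 0.3, n = 3), and the pontine-gated share of kept cells was 7.98 ± 1.83% against 5.86 ± 2.02%, lower in 2 of 3 pairs (exact permutation p = 0.5, n = 3). Of differentiated pontine neurons, members were 22.8 ± 2.81% in control and 26.3 ± 3.15% in the mutant (exact permutation p = 0.3, SD, n = 3), and 26.3 ± 1.84% and 33.1 ± 6.10% after thinning (exact permutation p = 0.2). With the 5% mitochondrial limit the shares of members in pontine-gated cells and in differentiated neurons were higher in the mutant in 3 of 3 pairs. None of these shares passed a test, and each also changes with the other cells in its total.

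In expression, edgeR called 0 of 10477 genes between the genotypes within members (0%), with 372 at an unadjusted p under 0.05. DESeq2 called 1, *Tshz2*. The fit that held the littermate pair as a block called 17 (0.162%), 7 higher and 10 lower in *Atoh1*S193A/- members, with 548 at an unadjusted p under 0.05. The *Atoh1* transcript itself does not show the point mutation and was sparse, with 5 to 20 UMIs in the members of a library.

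Among the markers of these cells, *Hoxa5* and *Calb1* were higher in the mutant in all 3 pairs. *Hoxa5* averaged 627 ± 127 CPM in control and 839 ± 170 CPM in *Atoh1*S193A/- members (SD, n = 3). Its log2 difference was 0.41 (SE 0.14) without the block, where it was not called, and 0.42 (SE 0.08, edgeR adjusted p = 0.0302) with the block. *Calb1* was at 80.3 ± 14.4 against 110 ± 14.7 CPM, with no overlap between the genotypes (log2 0.41, SE 0.14). It was not called in either fit (edgeR unadjusted p = 0.0105, and 0.00691 with the block). *Hoxc4* was at 328 ± 6.66 against 300 ± 28.2 CPM, *Hoxb4* at 98.4 ± 4.64 against 91.3 ± 6.48 CPM and *Hoxa4* at 108 ± 13.4 against 108 ± 10.1 CPM.

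Several of the larger genotype differences, that of *Sst* among them, rested on few cells. *Sst* was at 295, 246 and 82.3 CPM in members of control libraries 1, 2 and 3 and at 66.0, 38.2 and 36.7 CPM in those of the *Atoh1*S193A/- libraries (log2 -2.08, and -1.99 with the block). The groups did not overlap, but a single cell gave 58.4%, 79.5% and 48.5% of the *Sst* UMIs in the control libraries. A count of the 6 markers of other *Atoh1*-lineage neurons found 17 members with at least 3 of their UMIs, 12 in control libraries (5, 2 and 5) and 5 in *Atoh1*S193A/- libraries (3, 0 and 2). In these 17 cells *Sst* was at 1919 CPM and *Zfhx3*, *Tshz2*, *Meis2* and *Nr2f2* at 416, 717, 598 and 423 CPM. In the 57 members with 1 or 2 such UMIs *Sst* was at 42.9 CPM. The summed level of the 6 genes was 33.1 to 112 CPM in control and 6.37 to 14.503 CPM in *Atoh1*S193A/- members. The 17 cells had *Hoxa5* as well, at 790 CPM, against 643 CPM in the 436 members with no such UMI. Other genes were lower in the 17 cells than in those 436 members. *Hoxc4* was at 132 against 320 CPM, *Calb1* at 23.3 against 104, *Lmo4* at 142 against 1107 and *Barhl1* at 111 against 258 CPM. Whether the 17 cells were PN neurons was not tested.

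Without these 17 cells, a step added after the data were seen, *Sst* was at 6.49, 52.1 and 25.8 CPM in control and 34.4, 38.2 and 35.3 CPM in *Atoh1*S193A/- members, and its log2 difference turned to 0.43. *Tshz2* turned from -1.15 to 0.30 and *Scg2* went from -0.89 to -0.26. *Zfhx3* then fell under the filter on low counts. The differences of *Sst* and *Tshz2* between genotypes were thus not seen without the 17 cells. In the same fit without the block 2 genes were called, *Cdkn1c* and *Zbtb20*. With the block 17 were called, of which 8 (47.1%) were among the 17 called with all members, namely *Zbtb20*, *Cdkn1c*, *Hoxa5*, *Neto2*, *Nts*, *Sostdc1*, *Apoe* and *AY036118*.

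*Zbtb20* and *Cdkn1c* did not depend on these cells. *Zbtb20*, a zinc finger transcription factor, was at 121, 105 and 137 CPM in control and 89.0, 61.0 and 69.0 CPM in *Atoh1*S193A/- members, and was lower in every pair with no overlap (log2 -0.76, SE 0.12, edgeR adjusted p = 0.00473 with the block). *Cdkn1c*, an imprinted inhibitor of cyclin-dependent kinases, was at 252, 234 and 210 CPM in control and 164, 149 and 166 CPM in *Atoh1*S193A/- members (log2 -0.53, SE 0.09, edgeR adjusted p = 0.00941 with the block). In *Hoxb5*-zero neurons both genes were lower in the mutant in every pair as well, *Zbtb20* at 142, 173 and 160 against 76.3, 70.8 and 67.7 CPM and *Cdkn1c* at 239, 296 and 267 against 185, 196 and 165 CPM. The difference was thus seen in both classes. The study gave *Cdkn1c* as a marker of its P5 subtype PN3, which it matched to ePN1, the subtype lower in its E18.5 mutants. Of 10 ePN1 markers tested in members, 3 were called with the block. At an edgeR unadjusted p under 0.05 were 5, none of them higher in the mutant. Among all 10477 genes 17 were called and 548 were under 0.05. The mix of subtypes in either class was not tested.

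Of the other genes called with the block, *Nrp2* (log2 0.55), *Neto2*, an auxiliary subunit of kainate receptors (log2 0.42), *St18* (log2 0.55), *Nts*, which encodes neurotensin (log2 1.91), and *Sostdc1*, a secreted antagonist of BMP and Wnt signals (log2 0.94), were higher in all 3 mutant libraries than in their littermates. *Nrp2* was at 87.9, 78.1 and 70.5 CPM in control and 123, 103 and 117 CPM in *Atoh1*S193A/- members. Without the 17 cells *Nrp2* and *St18* were not called, at log2 0.43 and 0.46 (edgeR adjusted p = 0.128 and 0.10005 with the block). *Apoe*, an apolipoprotein of glia, rose by log2 2.14 (2.23 without the 17 cells), from 2.33, 5.51 and 5.30 CPM to 15.5, 11.8 and 26.3 CPM. The summed level of the 7 glial markers, of which *Apoe* is 1, was 100 to 141 CPM in control and 165 to 230 CPM in *Atoh1*S193A/- members. Of the other 6, *Vim* was at 52.4 ± 10.5 against 87.8 ± 12.9 CPM without overlap and was not called, and the other 5 overlapped between genotypes. Of the 7 glial markers 5 were tested. All 5 were higher in the mutant at an unadjusted p under 0.05 with the block (edgeR, median log2 0.51), and 3 were without it. Among all 10477 genes 548 were under 0.05 with the block. The part of glial transcripts in the *Apoe* difference was not tested. *Necab2* and *AY036118* were lower in all 3 mutant libraries (log2 -1.24 and -0.44), and *Necab2* was not called without the 17 cells (log2 -0.96, edgeR adjusted p = 0.462 with the block).

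**Figure D5:**
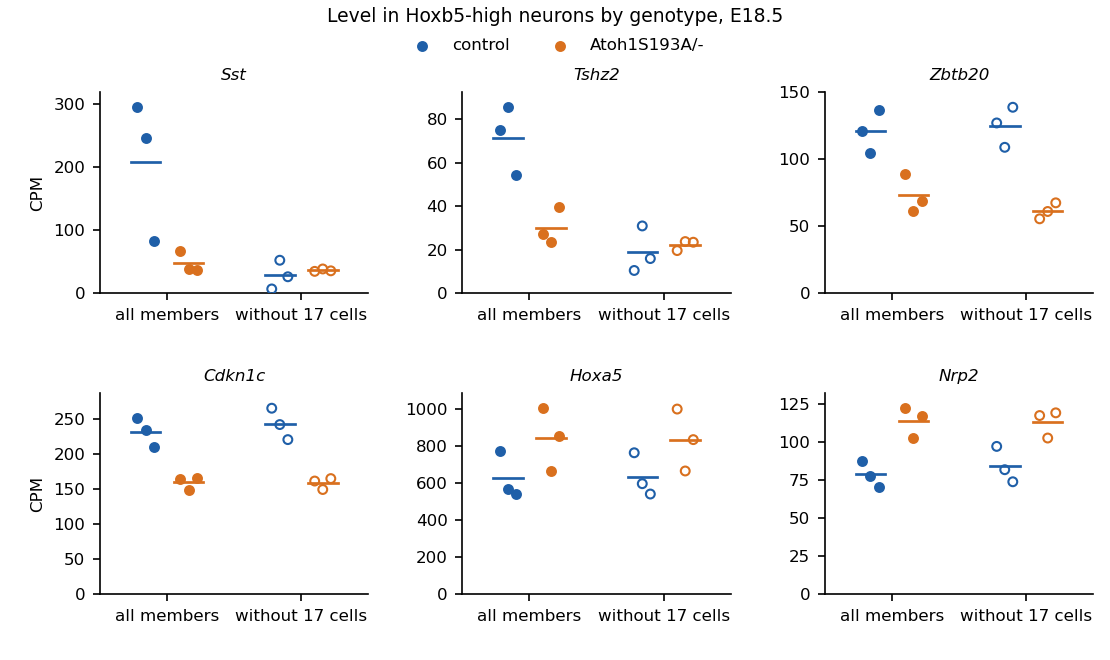
Level (CPM, y axis of each panel) of named genes in *Hoxb5*-high neurons of each control (blue) and *Atoh1*S193A/- (orange) library at E18.5, with all 510 members on the left and without the 17 members that carried markers of other *Atoh1*-lineage neurons on the right. *Sst* and *Tshz2* separated the genotypes on the left only, whereas *Zbtb20* and *Cdkn1c* did so on both sides.

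Whether the genotype changed members and *Hoxb5*-zero neurons differently was tested as an interaction, and 6 of 10374 genes were called (0.0578%). *Syt4* (log2 0.66), *Prdm8* (log2 0.88), *Rcan2* (log2 0.96) and *St18* (log2 1.27) were shifted towards members in *Atoh1*S193A/- embryos, and *Tshz2* (log2 -1.14) and *Sst* (log2 -2.22) towards *Hoxb5*-zero neurons. *St18* was at 59.4, 72.6 and 63.3 CPM in control and 93.5, 103 and 91.5 CPM in mutant members, and at 21.3, 18.9 and 14.1 CPM in control and 9.75, 10.7 and 11.0 CPM in mutant *Hoxb5*-zero neurons. It was higher in every mutant library among members and lower in every mutant library among *Hoxb5*-zero neurons. Without the cells of other-lineage markers 4 genes were called, *Syt4*, *St18*, *Rcan2* and *Neurod1*, and the values of *Tshz2* and *Sst* turned positive (0.33 and 0.30). Without control library 2 none was called and without control library 3 there were 53, and DESeq2 called none. *Syt4* is also on the ePN1 list of the study, and the part of subtype mix in these differences was not tested.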

How the data were processed

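The authors prepared 10x Genomics 3′ single-cell libraries (chemistry v3.1), and reads were aligned to mm10 with the WPRE sequence added. Each deposited matrix gives UMI counts that the authors did not normalize, by barcode and for 31054 features. The file headers name Cell Ranger 3.1.0 for 2 E14.5 libraries and 5.0.1 for the other 12, and the submitters' processing notes name 5.0.1. Libraries at E18.5 held 108239001 to 183911797 UMIs, and 8061 to 11355 cells each were kept.

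Groups and replicate numbers were taken from the sample labels. Same-numbered libraries were of littermates, and their deviations from the group means correlated at 0.218, 0.116 and 0.241 for pairs 1, 2 and 3. Libraries at E18.5 shared under 0.5% of their barcodes pairwise. Doublets were not removed in the main analysis. Scrublet (scanpy 1.11.5) scores were used in an alternative, and 1.59% to 12.0% of the members of a library were among the highest 7.5% of scores. For libraries 1, 2 and 3 this was 1.59%, 7.02% and 4.26% in control and 3.61%, 12.0% and 9.48% in *Atoh1*S193A/- members. The part of doublets in the genotype differences was not tested beyond that alternative.

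UMIs were summed per library and class, since cells of an embryo are not replicates, with at least 10 cells required. A gene was tested, if at least 10% of cells in either group had a UMI of it, by edgeR 4.0.16 (TMM, quasi-likelihood F test, R 4.3.3). A gene could therefore enter a test through the group where it was high alone. Between classes the library was a block, and between genotypes no block was used, with the littermate block as the alternative. Shares were compared by limma 3.58.1 on logits with 0.5 cells added, and by exact permutation and sign-flip tests written in R. DESeq2 1.42.0 was an alternative. The edgeR fits between classes, between genotypes without the block and of the interaction were also run on simulated data. The fit with the littermate block, DESeq2 and limma were not. Genes of the rule, *Hoxb2* and *Hoxb3* were left out of class tests.

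The rule for named genes took every Hox gene, the markers given with the definition, the 12 largest rises and the 12 largest falls among called genes of one sign in all libraries, called genotype genes, and up to 4 genes of each list with the smallest p, and some genes it took are not reported here. Other members of the lists named in the text were chosen after their values were seen. Members, lists and tests were chosen with earlier results of these data known. Positions come from the GENCODE M21 annotation (GRCm38).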

Additional observations from a re-analysis of the deposited data

Results flagged for a closer look

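The genotype difference was not the same in *Hoxb5*-high as in *Hoxb5*-zero neurons at E18.5 for 6 genes, by the interaction test of edgeR. The log2 difference between the 2 genotype effects was 0.66 for *Syt4*, 0.88 for *Prdm8*, 1.27 for *St18*, 0.96 for *Rcan2*, -1.14 for *Tshz2* and -2.22 for *Sst*. The last 2 turned positive without the cells that carried markers of other *Atoh1*-lineage neurons.

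For some named genes every library showed the opposite sign between *Hoxb5*-high and *Hoxb5*-zero neurons at 2 stages, and the difference between stages was not tested. At E18.5 the log2 difference was 1.34 for *Atp1b1*, 0.83 for *Grin3a*, 1.06 for *Ncald* and 0.79 for *Rcan2*, against -0.89, -0.48, -0.32 and -0.72 at E14.5. It was -1.60 for *Ephb1*, -1.32 for *Nrp1* and -1.22 for *Slc1a3* at E18.5, against 0.60, 0.57 and 0.70 at E14.5. By median UMIs, *Hoxb5*-high cells were deeper than *Hoxb5*-zero cells at E18.5 and shallower in most E14.5 libraries. Of the E14.5 cells, 28.7% of *Hoxb5*-high and 26.6% of *Hoxb5*-zero ones carried markers of other *Atoh1*-lineage neurons. Without these cells the E14.5 values were -1.55 for *Atp1b1*, -0.59 for *Ncald*, -0.88 for *Rcan2*, 1.13 for *Ephb1*, 0.92 for *Slc1a3* and 0.33 for *Nrp1*, which was no longer called, and *Grin3a*, not called at E14.5 with all cells, was not tested. Between E18.5 and P5, *Cdh6* went from 1.77 to -0.39, *Necab2* from 1.56 to -0.20 and *Grin3a* from 0.83 to -0.09, and *Crabp1* went from -1.02 to 0.37 and *Slc1a3* from -1.22 to 0.57. The P5 signs rest on 2 libraries.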

How the results depend on the processing

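Of 83 values of the main comparisons under alternatives, 65 kept their direction, their side of the threshold or a count within 1.5 times. For the class difference at E18.5 (1658 genes), DESeq2 called 1035, comparison cells without the Hox requirement gave 2771 and control libraries alone 937. Leaving out 1 library gave 1403 to 1683 at E18.5 and 429 to 707 at E14.5 (619 with all). No alternative of the P5 or E14.5 counts moved them past 1.5 times, and leaving out a P5 library was not run because no residual degree of freedom is left. For the genotype difference in members (0 genes), the replicate block gave 17, DESeq2 1, no filter on low counts 63, the 5% mitochondrial limit 2 and removal of high Scrublet scores 7. Leaving out 1 library gave 0 to 8, the 8 without control library 3. Without the cells of other-lineage markers there were 2, and 17 with the block as well. For the class difference by genotype (6 genes), DESeq2 gave 0, no filter 63 and leaving out 1 library 0 to 53. The genotype difference in the share of kept cells (-0.09 percentage points) turned to 0.16 after thinning to 10000 UMIs and ranged from -0.31 to 0.20 when 1 library was left out. It passed no test under any of these, and the replicate block changed no call on the shares. In the share of pontine-gated cells the logit difference ranged from 0.17 to 0.68 when 1 library was left out.

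Of 170 values of named genes, 9 changed sign under some alternative. Without the Hox requirement *Reln* went to -0.84 and *Prdm8* to -0.16. *Hoxa2* went to -0.0149 in *Atoh1*S193A/- libraries alone and ranged from -0.0310 to 0.133 when 1 library was left out, the lowest without control library 3. Between genotypes *Hoxa4*, at 0.02, went to -0.0643 with the 5% mitochondrial limit, to -0.0428 with 1 *Hoxb5* UMI, to -0.0110 without the cells of other-lineage markers and to -0.00939 with the block as well, and ranged from -0.0933 to 0.0826 when 1 library was left out. Without those cells the genotype difference of *Sst* went to 0.43, of *Tshz2* to 0.30 and of *Nr2f2* to 0.59, and with the block to 0.50, 0.34 and 0.49, while the differences between classes by genotype of *Tshz2* and *Sst* went to 0.33 and 0.30. Why these values moved was not tested.

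Depth limits the genes of few UMIs, since all members together held 510 cells. With 3 embryos per genotype, permutation tests cannot fall below 0.1.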
